A study of Mus musculus with 7 samples.

Results

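The RAF, MEK and ERK cascade was followed in germinal centre B cells of RRas2-deficient and WT mice through 7 genes taken by symbol from the array's platform annotation: Araf and Braf, Map2k1 and Map2k2, Mapk3, Dusp6 and Map3k21. Of these 7, 6 were measured and passed the limit on dim genes, as did 16136 of the 21515 genes with a single symbol, and Mapk3 was not analysed here. For Dusp6, with 2 probes, the brighter in the mean over the 7 arrays was kept. Map3k21 had been named for its genotype difference in an earlier analysis of the same arrays, so its values are a description without a test, and the other 5 were tested.

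The study asked how messenger RNA differs when germinal centre B cells lack R-Ras2, a small GTPase. B cells positive for B220, CD95 and GL7 were sorted from spleen 7 days after sheep red blood cells were injected into the peritoneum, a T cell-dependent immunization that every group received. The groups were 3 samples from RRas2-deficient mice and 4 samples from wild-type (WT) mice, each read on 1 array and called a biological replicate in the labels. The labels give no allele, strain, age or number of animals pooled, nor whether the deletion reaches other cells of the mouse, and the description field of the deficient samples reads Rras where title and genotype read RRas2.

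In the cascade, GTP-bound RAS proteins recruit RAF kinases to the membrane, RAF kinases phosphorylate the MEK kinases, and these phosphorylate ERK, which acts on transcription factors and on further kinases. In B cells the antigen receptor feeds the cascade through exchange factors that load RAS with GTP. ERK signalling induces its own brakes, among them the phosphatase DUSP6, which removes phosphate from ERK in the cytoplasm. An array reads messenger RNA, and the activity of the cascade is set largely by phosphorylation, which it does not read.

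Promoter windows are shown for 4 genes, of which Braf and Map2k1 read higher on arrays of a wider spread of intensities, described below, by more than Dusp6 and Map3k21 did. Araf and Map2k2, whose windows are not shown, also read higher there, by 0.39 and 0.55 (log2) beside 0.37 for Braf. Each window runs from 250 bases before to 50 bases after the RefSeq start site in GRCm38.p6, read 5′ to 3′ on the gene's strand. They are chr6:39725414-39725713 on the minus strand for Braf, chr9:64253556-64253855 on the minus strand for Map2k1, chr10:99262981-99263280 on the plus strand for Dusp6 and chr8:125910200-125910499 on the plus strand for Map3k21. Capitals mark matches on either strand to any of 5 motifs, the cyclic AMP response element core TGACGTC, the ETS core CCGGAA, the GC box GGGCGG, the CCAAT box CCAAT and the AP-1 site TGAGTCA.
Braf: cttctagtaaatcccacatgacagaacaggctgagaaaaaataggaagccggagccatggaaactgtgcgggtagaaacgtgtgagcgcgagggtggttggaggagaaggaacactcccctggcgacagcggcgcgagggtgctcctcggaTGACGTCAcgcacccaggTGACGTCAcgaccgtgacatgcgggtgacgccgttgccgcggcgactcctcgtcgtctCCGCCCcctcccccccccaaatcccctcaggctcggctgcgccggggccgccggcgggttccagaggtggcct
Map2k1: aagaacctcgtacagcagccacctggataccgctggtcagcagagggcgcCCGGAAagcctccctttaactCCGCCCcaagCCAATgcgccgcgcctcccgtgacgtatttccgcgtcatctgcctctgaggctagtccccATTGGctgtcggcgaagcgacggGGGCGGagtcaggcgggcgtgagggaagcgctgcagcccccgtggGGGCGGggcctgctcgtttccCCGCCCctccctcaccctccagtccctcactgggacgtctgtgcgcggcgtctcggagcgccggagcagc
Dusp6: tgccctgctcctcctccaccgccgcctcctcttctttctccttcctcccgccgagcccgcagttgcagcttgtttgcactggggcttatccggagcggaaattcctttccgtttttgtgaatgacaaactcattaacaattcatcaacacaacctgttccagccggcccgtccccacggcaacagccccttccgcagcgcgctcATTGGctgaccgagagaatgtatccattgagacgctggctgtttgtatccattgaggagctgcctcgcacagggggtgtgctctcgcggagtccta
Map3k21: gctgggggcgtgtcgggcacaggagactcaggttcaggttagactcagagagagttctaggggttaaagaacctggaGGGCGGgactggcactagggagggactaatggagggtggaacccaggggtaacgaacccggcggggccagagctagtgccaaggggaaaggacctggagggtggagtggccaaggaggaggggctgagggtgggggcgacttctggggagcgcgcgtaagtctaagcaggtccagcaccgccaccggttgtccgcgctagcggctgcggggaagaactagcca
The Braf window held the TGACGTC core at 2 places, about 99 and 81 bases before the start site, each read on both strands as overlapping matches, and 3.21% of 32851 mouse promoter windows of this length hold that core. The Map2k1 window held 4 GC boxes (a match in 35.7% of windows), 2 CCAAT boxes (37.4%) and 1 ETS core (14.9%). The Dusp6 window held 1 CCAAT box and the Map3k21 window 1 GC box. The AP-1 letters, present in 5.20% of windows, were in none of the 4. Of the windows not shown, that of Araf held 1 ETS core and 3 CCAAT boxes and that of Map2k2 held 2 GC boxes. Neither held the TGACGTC core. These matches describe letters only.

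Apart from genotype, the arrays formed a narrower and a wider set, parted at the widest gap in the interquartile range of their log2 intensities. The narrower set held 1 deficient and 2 WT arrays (2.37 to 2.49) and the wider set 2 deficient and 2 WT arrays (2.69 to 2.91). The mean over 10 measured markers of germinal centre B cells, among them Bcl6, was 9.20 to 9.34 in the narrower set and 10.1 to 10.5 in the wider set, and that of 22 immediate early genes ran the other way, at 7.61 to 8.02 and 6.55 to 7.15. T cell markers (7 measured) averaged 3.89 to 4.12 in deficient and 3.84 to 4.54 in WT samples, and myeloid markers (13 measured) 4.14 to 4.55 and 4.08 to 4.41. The myeloid averages include the dim genes Cd14, S100a8 and Ly6g. Genes with a mean under 3.48 (log2) were left out of the tests as dim. Single myeloid markers were brighter, with Cd68 at 7.19 in deficient and 7.34 in WT samples, and 8 of 10 tested were higher in deficient cells, while 6 of 6 plasma cell markers were lower. Naive or marginal zone B cell markers (5 measured) averaged 7.38 to 7.51 in the narrower and 6.91 to 7.15 in the wider set. Of these, Ccr7 differed by -2.37 (log2), wider minus narrower, while the list's median was 0.01. In deficient cells 1 was higher and 4 lower, and Fcrl5, at -0.57 ± 0.11 (SE), did not overlap between genotypes, as in 1.08% of all genes tested. None of the markers passed, and the part of such cells in the results below was not tested. Rras2 itself read 6.93, 6.68 and 7.12 in deficient and 7.13, 7.41, 8.66 and 8.39 in WT replicates. That is a log2 difference of -0.99 ± 0.39 (SE), and limma's adjusted p was 1.00. The difference was -1.50 within the wider and -0.59 within the narrower arrays. With the array set as a block it was -1.13 ± 0.20 (SE, limma adjusted p = 0.296). The genotypes did not overlap, as in 1.08% of all genes tested (0.366% with the deficient arrays lower). WT replicate 3 stood apart in its sex-linked genes, with 6.61 for Xist against 9.43 to 10.3 on the other 6 arrays.

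In RRas2-deficient germinal centre B cells none of the 5 cascade genes tested passed the test over all genes. With limma, 0 of 5 passed an adjusted p of 0.05, where 2 of 16136 genes did (0.0124%). At an unadjusted limma p under 0.05, fitted by genotype alone, there were 0 of 5, against 0.818% of all genes (0.521% in the higher direction). The log2 differences of the 5 genes tested ran from -0.15 to 0.32, and the middle one was -0.04 (Araf). The median over all genes tested was 0.00. Map3k21, named for its difference on these arrays, differed by 0.45. The 95% intervals below are limma's, and for the 5 genes tested each one fitted by genotype alone spans 0. In sorted bulk cells, fewer cells of a type and less RNA per cell cannot be told apart.

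**Figure D1:**
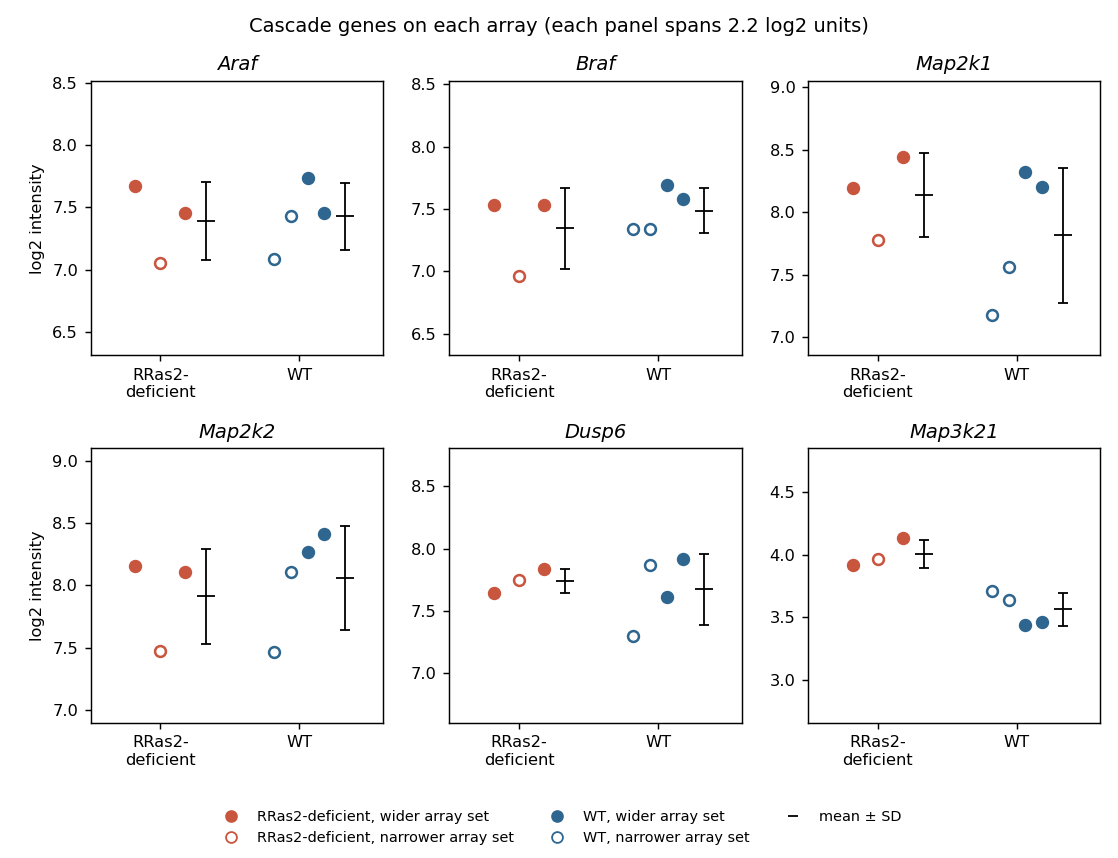
Log2 intensity of the 6 measured cascade genes on each array, RRas2-deficient on the left and WT on the right of each panel, with filled points for the wider and open points for the narrower array set and bars for mean ± SD. The genotypes overlap in all panels except that of Map3k21, where the deficient arrays read 3.92 to 4.14 and the WT arrays 3.44 to 3.71.

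Of the RAF kinases, which receive the signal from RAS, Araf and Braf were measured. Braf, the RAF kinase with the highest basal activity, read 7.54, 6.97 and 7.53 in RRas2-deficient replicates 1 to 3, against 7.34, 7.34, 7.69 and 7.58 in WT replicates 1 to 4. The deficient array of the narrower set was lowest, and the other deficient arrays lay within the WT range. The means were 7.34 ± 0.33 (SD, n = 3) in deficient and 7.49 ± 0.18 (SD, n = 4) in WT cells, a log2 difference of -0.14 ± 0.18 (SE, 95% interval -0.56 to 0.28, limma adjusted p = 1.00). Without RRas2-deficient replicate 2 the difference was 0.05. With the array set as a block it was -0.21 ± 0.09 (95% interval -0.42 to -0.0049, limma adjusted p = 0.483), where 6.24% of all genes were lower at an unadjusted p under 0.05. In the same blocked fit all 10 tested germinal centre markers were lower, with a median of -0.17, and their part in the Braf value was not tested. It was -0.10 within the wider and -0.37 within the narrower arrays.

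Araf, encoded on the X chromosome, read 7.67, 7.05 and 7.46 in RRas2-deficient replicates, against 7.08, 7.43, 7.74 and 7.46 in WT replicates. The genotypes covered nearly the same range, with the lowest value of each on a narrower array. The group means were 7.39 ± 0.31 (SD, n = 3) in deficient and 7.43 ± 0.27 (SD, n = 4) in WT cells. The log2 difference was -0.04 ± 0.20 (SE), with a 95% interval of -0.51 to 0.44, or 0.702-fold to 1.36-fold. It was 0.07 without WT replicate 3, the array that differs in sex-linked genes, and 0.13 without RRas2-deficient replicate 2.

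The MEK kinases, which take the signal from RAF and phosphorylate ERK, differed from each other in the sign of their mean difference. Map2k1, which encodes MEK1, read 8.19, 7.77 and 8.44 in RRas2-deficient replicates, against 7.18, 7.56, 8.32 and 8.20 in WT replicates. The lowest values were the narrower WT arrays, and the highest was deficient replicate 3. The means were 8.13 ± 0.34 (SD, n = 3) and 7.81 ± 0.54 (SD, n = 4), a log2 difference of 0.32 ± 0.31 (SE; limma adjusted p = 1.00). The 95% interval was -0.43 to 1.07, or 0.744-fold to 2.10-fold, the widest of the 5 members tested. Within the wider arrays the difference was 0.06, within the narrower ones 0.41, and with the block 0.20 ± 0.13 (limma adjusted p = 0.664). It was lowest at 0.11 without WT replicate 1 and stayed above 0 without any other 1 array.

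Map2k2, which encodes MEK2, read 8.16, 7.47 and 8.11 in RRas2-deficient replicates, against 7.47, 8.11, 8.27 and 8.41 in WT replicates. The highest deficient array lay below the top 2 WT arrays, and the lowest arrays of both genotypes read the same to 2 decimals. The means were 7.91 ± 0.38 (SD, n = 3) in deficient and 8.06 ± 0.42 (SD, n = 4) in WT cells. The log2 difference was -0.15 ± 0.27 (SE, 95% interval -0.80 to 0.50), and with the block it was -0.25 ± 0.15 (limma adjusted p = 0.635). Without RRas2-deficient replicate 2 it was 0.07. The Map2k2 value of 8.11 was identical on deficient replicate 3 and WT replicate 2, as was the Araf value of 7.46 on deficient replicate 3 and WT replicate 4.

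The MEK probes were also set against each other within each array, a comparison chosen after the values were seen. Only the shift of this difference between arrays can be read, since each probe has its own brightness. Map2k1 minus Map2k2 was 0.03, 0.30 and 0.33 in RRas2-deficient replicates, against -0.29, -0.55, 0.05 and -0.21 in WT replicates. A single WT array, replicate 3, reached into the deficient range. The means were 0.22 ± 0.16 (SD, n = 3) and -0.25 ± 0.25 (SD, n = 4), a log2 shift of 0.47. No test is given, since the pair was chosen with its values known. The shift was 0.26 within the wider and 0.72 within the narrower arrays, and 0.37 to 0.57 without any 1 array. For Braf minus Araf it was -0.11.

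**Figure D2:**
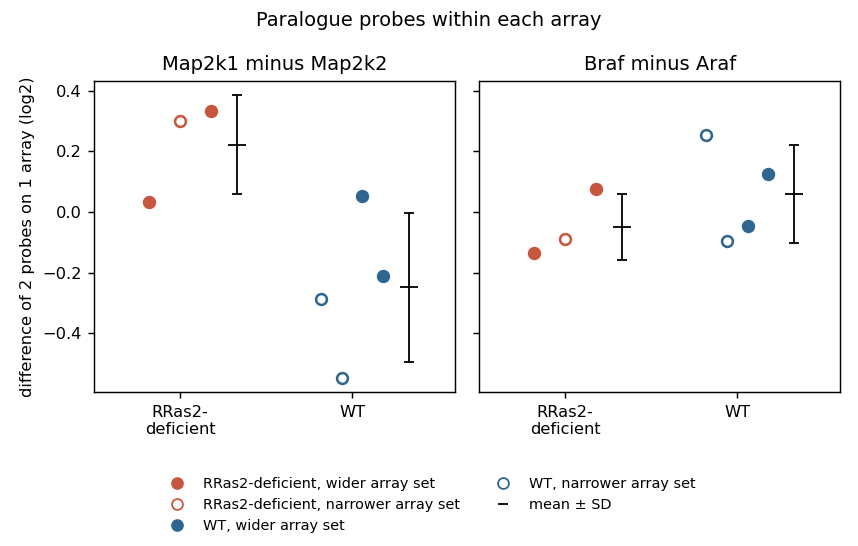
Difference in log2 intensity between the probes of 2 paralogues on each array, Map2k1 minus Map2k2 on the left and Braf minus Araf on the right, RRas2-deficient left of WT in each, with bars for mean ± SD. For the MEK genes the deficient arrays sit at 0.03 to 0.33 and the WT arrays at -0.55 to 0.05.

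Dusp6, the ERK phosphatase that ERK signalling itself induces, read 7.65, 7.75 and 7.84 in RRas2-deficient replicates, against 7.30, 7.87, 7.61 and 7.91 in WT replicates. All deficient values lay inside the WT range, and the lowest array was WT replicate 1. The means were 7.74 ± 0.10 (SD, n = 3) in deficient and 7.67 ± 0.28 (SD, n = 4) in WT cells, a log2 difference of 0.07 ± 0.16 (SE; limma adjusted p = 1.00). The 95% interval of -0.32 to 0.46 allows 0.801-fold to 1.37-fold. Without WT replicate 1 the difference was -0.05, and it was -0.02 within the wider and 0.16 within the narrower arrays. The second Dusp6 probe read 2.81 to 3.12, under the limit for dim genes on every array.

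Map3k21 encodes the mixed-lineage kinase MLK4, a kinase at the level of RAF in the order of MAP kinase cascades. It read 3.92, 3.97 and 4.14 in RRas2-deficient replicates, against 3.71, 3.64, 3.44 and 3.47 in WT replicates. The genotypes did not overlap, as in 1.08% of all genes tested (0.719% with the deficient arrays higher). The means were 4.01 ± 0.11 (SD, n = 3) and 3.56 ± 0.13 (SD, n = 4), a log2 difference of 0.45 ± 0.11 (SE), or 1.36-fold. It was 0.58 within the wider and 0.30 within the narrower arrays, and 0.38 to 0.50 without any 1 array. The level was close to the limit of 3.48, under which WT replicates 3 and 4 fell, and the gene was named for its difference on these same arrays. The size of the difference is therefore uncertain, and its SE and its range without any 1 array are descriptions only.

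**Figure D3:**
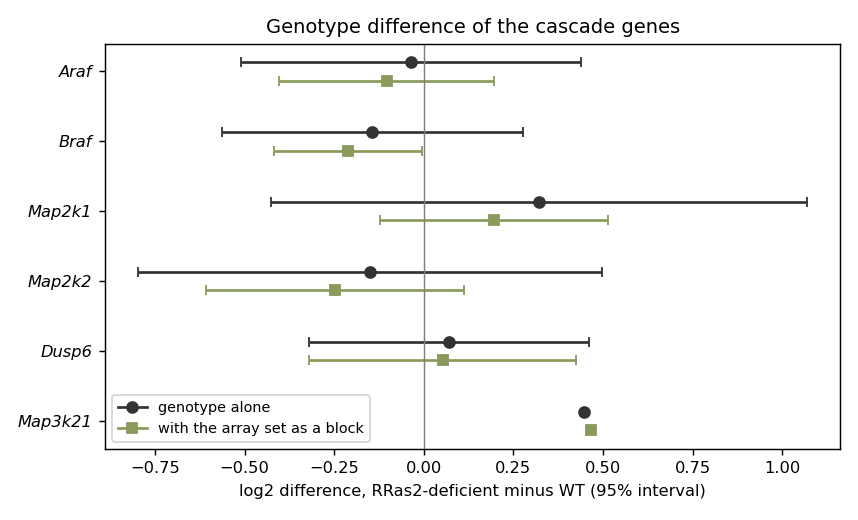
Log2 difference, RRas2-deficient minus WT, of each cascade gene from limma with genotype alone (circles) and with the array set as a block (squares), with 95% intervals for the 5 genes tested and points without intervals for Map3k21. The circles' intervals all span 0, and the block narrows those of the RAF and MEK genes more than that of Dusp6.

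The RAF and MEK genes read higher in the mean on the wider arrays. Araf and Braf averaged 7.58 and 7.59 on the wider arrays against 7.19 and 7.21 on the narrower ones. Map2k1 averaged 8.29 against 7.50 and Map2k2 8.24 against 7.68. These kinase genes were thus 0.37 to 0.78 higher (log2) on the wider arrays, beside a median of -0.02 and a 75th percentile of 0.38 over all genes tested. Dusp6 was 0.11 higher there and Map3k21 differed by -0.03. The germinal centre markers were higher on the same arrays, and their part in the levels of the kinase genes was not tested.

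Over the 7 arrays, Pearson correlations among Araf, Braf, Map2k1 and Map2k2 ran from 0.60 (Braf with Map2k1) to 0.87 (Araf with Map2k2). Dusp6 correlated with these genes at 0.06 to 0.58, and Map3k21 at -0.41 to 0.11. These values describe arrays that share the sets above. The spread of Map2k1 within genotypes (residual SD 0.47) stood at the 84.8th percentile of all genes tested and that of Map3k21 (0.12) at the 21.4th.

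**Figure D4:**
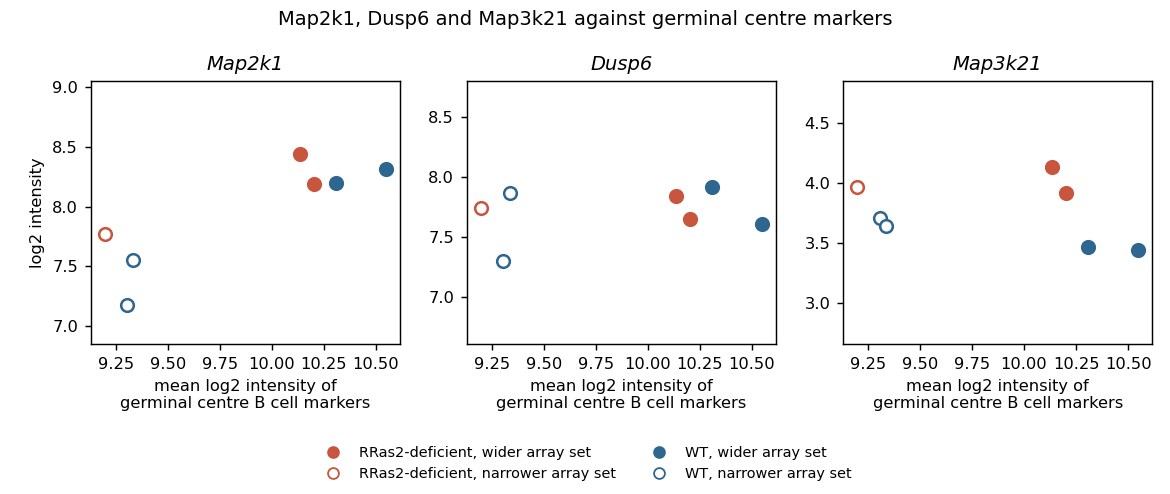
Log2 intensity of Map2k1, Dusp6 and Map3k21 on each array (vertical axes, each spanning the same log2 range) against the mean of the germinal centre B cell markers on that array (horizontal axis). Map2k1 is higher on the 4 arrays with marker means of 10.1 to 10.5, Dusp6 has 7.30 to 7.87 on the narrower and 7.61 to 7.91 on the wider arrays, and Map3k21 parts by genotype.

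The genes most like each member over the 7 arrays were looked for among 14102 tested genes. Braf ran closest with Lsm5, of the U6 small nuclear RNA complex (r = 0.997), and Cdk6, a kinase of the G1 phase (0.990). Araf ran with the mitochondrial carrier gene Slc25a36 (0.991) and the ribosomal protein gene Rps10 (0.987). Map2k1 ran with Kifap3, a kinesin-associated protein (0.995), and Eaf2, a partner of the ELL elongation factors (0.994). Map2k2 ran with the fatty acid oxidation gene Acaa2 (0.993) and the formin gene Diaph1 (0.990). The highest values for Dusp6 were lower, 0.962 with Znfx1 and 0.940 with Hnrnpa0, and those for Map3k21 were 0.974 with Pclo and 0.954 with the receptor phosphatase gene Ptprm. A search over so many genes gives high values on 7 arrays in any case, and these are descriptions.

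Genes of the same pathway were followed in 6 lists. Fitted by genotype alone, limma called 0 of their genes at an adjusted p of 0.05, and 1 gene, Map3k5, had an unadjusted p under 0.05. That is 1 of 96 genes (1.04%), beside 0.818% of all genes tested. Over all genes 8340 were higher and 7796 lower (48.3% lower) in deficient cells, and with the array set as a block 50.9% were lower. Other kinases of ERK-type cascades, with MAP3K8, stand beside the members. Of 8 listed genes 5 were tested; 4 were higher and 1 lower in deficient cells, and 0 passed. The median log2 difference was 0.08. Mapk4, an atypical MAP kinase, differed by 0.13 ± 0.20 (SE), Map3k8, which activates MEK downstream of Toll-like and TNF receptors, by 0.08 ± 0.12, and Mapk7, which encodes ERK5, by 0.04 ± 0.07.

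Scaffolds and partners of RAF hold the kinases together or set RAF activity. Of 18 tested, 8 were higher and 10 lower, 0 passed, and the median was -0.02, which became 0.13 without RRas2-deficient replicate 2 and 0.04 without WT replicate 3 or WT replicate 4. The late endosomal MEK scaffold subunit gene Lamtor3 read 7.14, 6.99 and 7.04 in RRas2-deficient replicates, against 7.08, 7.38, 7.27 and 7.23 in WT replicates, a difference of -0.18 ± 0.10 (SE). The scaffold genes Ksr1 and Ksr2 differed by 0.18 ± 0.13 and -0.14 ± 0.15. Ksr2 was close to the limit for dim genes, with means of 3.52 in deficient and 3.66 in WT cells.

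Phosphatases and feedback inhibitors other than Dusp6 numbered 16 tested genes, 9 higher and 7 lower, with 0 passing and a median of 0.06, which became -0.03 without WT replicate 1. Spry1, a Sprouty inhibitor of receptor signalling to RAS, differed by 0.16 ± 0.10 (SE). Spred2, which blocks RAF activation, read 5.73, 5.83 and 5.88 in RRas2-deficient replicates, against 5.16, 5.15, 5.93 and 5.98 in WT replicates, a difference of 0.26 ± 0.24; the low values were the WT arrays of the narrower set. Dusp5, the nuclear ERK phosphatase gene, differed by 0.21 ± 0.19, with WT replicate 1 at 6.04 and the other 6 arrays at 6.70 to 6.84.

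Kinases and transcription factors that ERK acts on, with genes its signalling induces, numbered 18 tested, 14 higher and 4 lower in deficient cells, or 12 and 6 with the block. None passed in either fit. Without the block 0 reached an unadjusted limma p under 0.05, and the median was 0.07, or 0.04 to 0.12 without any 1 array. With the block Epha4 and Ccnd1 had unadjusted limma p-values of 0.024 and 0.048, where 10.1% of all genes were under 0.05. The receptor gene Epha4 differed by 0.22 ± 0.11 (SE), the cyclin D1 gene Ccnd1 by 0.22 ± 0.15 and the ETS factor gene Etv3 by 0.09 ± 0.08. Ccnd1 read 4.58, 5.08 and 4.58 in RRas2-deficient replicates, against 4.58, 4.58, 4.38 and 4.58 in WT replicates, and only deficient replicate 2 and WT replicate 3 stood off the shared value.

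In the mixed-lineage kinase family and the stress-activated MAP kinase arms, which lead to JNK and p38, 8 of 22 tested genes were higher and 14 lower, 0 passed, and the median was -0.03, or -0.07 to 0.01 without any 1 array. Map3k5, which encodes the stress kinase ASK1, read 8.13, 7.89 and 8.31 in RRas2-deficient replicates, against 7.56, 7.89, 7.74 and 7.89 in WT replicates. Fitted by genotype alone, its difference of 0.34 ± 0.14 (SE) was the 1 in this list with an unadjusted limma p under 0.05 (adjusted p = 1.00). Map3k9, the gene of the related MLK1, differed by 0.33 ± 0.20 and Map3k12 by 0.14 ± 0.09.

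Immediate early genes, many of which ERK induces through serum response factor and ELK factors, were lower in 17 of 22 cases without the block, with a median of -0.10, and in 9 of 22 with it, with a median of 0.03. None passed in either fit. The median without the block was -0.46 without RRas2-deficient replicate 2, -0.28 without WT replicate 3, 0.17 without RRas2-deficient replicate 1 and 0.02 without WT replicate 2. Egr2 differed by -0.20 ± 0.15 (SE), Zfp36, which destabilizes messenger RNA, by -0.24 ± 0.24, and the Krüppel-like factor gene Klf6 by -0.24 ± 0.24. The list's median shift, wider minus narrower arrays, was -0.92 on the log2 scale, opposite in sign to that of the RAF and MEK genes.

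**Figure D5:**
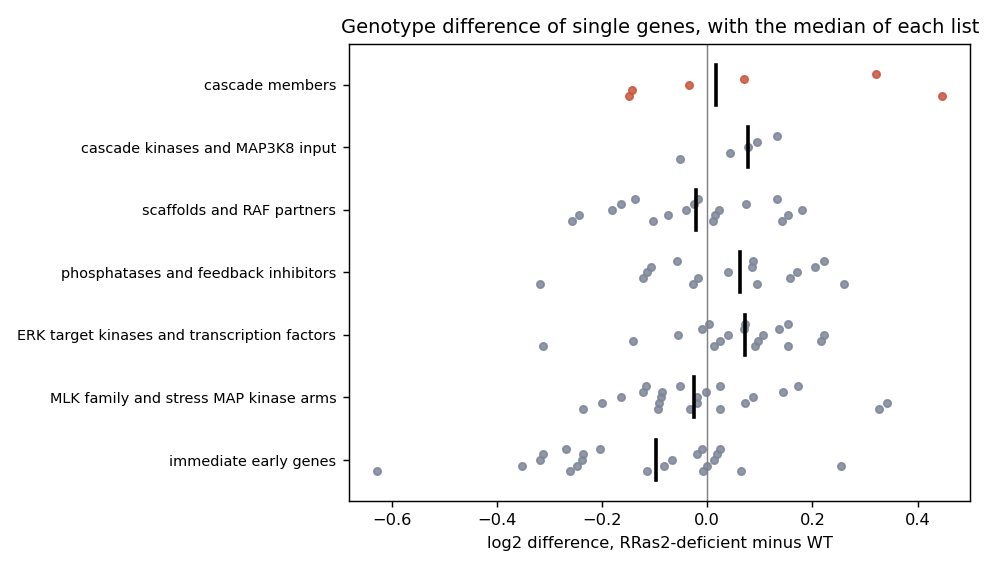
Log2 difference, RRas2-deficient minus WT, of single genes (points) with the median of each list (black bars), for the 6 cascade members (top row) and the tested genes of 6 lists of related genes. The medians lie between -0.10 and 0.08 with all 7 arrays, and their signs for 4 of the lists change when 1 array is left out. Map3k21 is shown without a test and is included in the median of the top row. None of the genes tested passed the test over all genes.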

How the data were processed

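Total RNA of the sorted cells was labelled with biotin, per the labels, and read on 1 array for each of 3 RRas2-deficient and 4 WT samples. The table deposited by the authors holds log2 intensities for 25349 probe sets; RMA and the package oligo are named, without versions, in the submitters' processing notes, and other steps are not given in the sources used here. Precision is limited by how many arrays there are. No 2 arrays held identical values (highest correlation 0.993), and the labels name no animals, so p-values cover only the spread seen among these samples, which may be technical.

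Genes were named from the platform annotation (22225 probes with 1 symbol, 616 with several, 2508 with none), the brightest probe was kept, and 16136 genes remained after those whose mean lay below the 25th percentile (3.48) were dropped. Genotypes were compared in R 4.3.3 with limma 3.58.1, by a two-sided moderated test of RRas2-deficient minus WT over all 16136 genes with Benjamini-Hochberg adjustment and a threshold of 0.05, which was also tested on simulated data. Array weights used statmod 1.5.0. Genes named in the text are the members, Rras2, the 3 of lowest unadjusted p in each list and the 2 most correlated with each member, predicted genes left out. Ywhaz, Ppp1ca, Ppp1cb and Ywhae are named besides, for their values with the array set as a block. Single marker genes (Bcl6, Cd68, Ccr7, Fcrl5, Xist, Eif2s3y, Kdm5d, Uty, Klf1) were named after their values were seen, and Cd14, S100a8 and Ly6g as the dim genes of their list. Members, lists, array sets and alternatives were chosen with earlier results of these data known, and the paralogue pairs and their alternatives after the values were seen. Same-numbered samples deviated from their group means with correlations of -0.59, 0.78 and 0.66. These values follow the array sets and cannot show whether the numbers pair samples. Deficient replicate 2 correlated at 0.72 and 0.78 with the narrower WT arrays, and deficient replicates 1 and 3 at 0.59 to 0.66 with the wider ones. The labels state no pairing, so the main test used none. Promoters are RefSeq sequences of GRCm38.p6, matched for all 6 measured members.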

Additional observations from a re-analysis of the deposited data

Results flagged for a closer look

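Among 39 sets of WT values examined, 7 held an array far from the other 3 by Dixon's criterion, where chance gives about 1 in 20. In 5 of them the other 3 arrays read exactly alike, which sets any different value apart. These were Mapk7 in WT replicate 2 (6.22, against 6.28 on the others), Ksr1 in WT replicate 1 (5.71, against 6.13), Spry1 in WT replicate 3 (4.77, against 4.95), Ccnd1 in WT replicate 3 (4.38, against 4.58) and the erythroid marker Klf1 in WT replicate 3 (3.52, against 3.91). Dusp5 was 6.04 in WT replicate 1 and 6.70 to 6.79 in the other WT samples. Mapk4 was 4.07 in WT replicate 3 and 4.44 to 4.49 in the others. No cascade member was among them, and groups of 3 were not examined.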

How the results depend on the processing

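None of the 5 cascade genes tested was called under any of the 17 alternative fits run on the table. The count of all genes called, 2 with limma (both lower), was 1 with arrays centred on their medians (1 lower), 5 with array weights (1 higher, 4 lower), 0 with the replicate block and 0 to 2 without any 1 array. With the replicate number as a block, 176 genes had an unadjusted p under 0.05 and none of the 5 was called. Araf turned to 0.066 with array weights and to 0.0020 with the interquartile range as a covariate, and ran from -0.17 to 0.13 without any 1 array. Dusp6 turned to -0.12 with array weights and to -0.019 on the wider arrays alone, and ran from -0.055 to 0.15 without any 1 array. Braf ran from -0.24 to 0.046, Map2k2 from -0.35 to 0.070, Map2k1 from 0.11 to 0.50 and Map3k21 from 0.38 to 0.50 without any 1 array. With the interquartile range as a covariate, Map2k1 was 0.39 ± 0.11 (SE; limma unadjusted p = 0.0080, adjusted p = 0.942). In that fit 759 of 16136 genes had an unadjusted p under 0.05. After further quantile normalization Map2k1 was 0.36 ± 0.13 (SE, limma unadjusted p = 0.030). There 234 of 16136 genes had an unadjusted p under 0.05. Map3k21 was 0.30 on the narrower and 0.58 on the wider arrays alone. The cause was not tested. Map3k21 and Ksr2 lie close to the limit for dim genes, so their sizes of difference are uncertain.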
